A study of Mus musculus with 8 samples.

Results

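The numbered Gpr genes encode G protein-coupled receptors that were named in order of discovery, most of them before a ligand was known, together with a few multi-pass membrane proteins that carry the same kind of name. They were followed in the suprachiasmatic nucleus (SCN), the paired hypothalamic cell group that times the daily cycle in mammals, in mice with and without Gpr176, an orphan receptor of the same naming series. A gene was included when its single annotated symbol was Gpr followed by digits, with an ending letter allowed, and Gpr176 itself was left out. This rule gave 68 genes of 19938 with a single symbol. The rule used no measured value, but the set was chosen with earlier results of these data known. Of the 68, 41 had a mean level high enough to be tested and 27 did not.

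G protein-coupled receptors carry signals from outside the cell to heterotrimeric G proteins, which in turn raise or lower cyclic AMP, calcium or ion channel activity. In SCN neurons cyclic AMP and calcium feed into the molecular clock, partly through CREB, a transcription factor that binds the cyclic AMP response element (CRE). Several orphan receptors signal without any added ligand, so that the amount of receptor made by the cell can set the strength of the signal. Gpr176 is known as such a receptor, and it acts through Gz, a G protein that lowers cyclic AMP.

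The sex and age of the mice, and the part of Gpr176 that was deleted, are not given in the sources used here. All mice were C57BL/6J, were first held on a light-dark cycle and were then sampled in constant darkness. The 4 groups were wild type at circadian time 6 (CT6, subjective day), wild type at CT18 (subjective night), Gpr176-/- at CT6 and Gpr176-/- at CT18. There were 2 pools per group, lettered A and B, with 1 array for each. A pool was SCN tissue cut out with a laser from 10 animals, so an array averages over animals and shows no animal's own level. The comparisons asked which numbered receptors differed between day and night, and which differed when Gpr176 was missing.

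All 12 SCN marker genes chosen to check the tissue, among them Avp, Vip and Six6, lay above the level filter. Their mean log2 level was 10.85 to 10.94 in the CT6 arrays and 10.5 to 10.53 in the CT18 arrays, so it differed by time. Over both genotypes 2 of the 12 rose at CT18 and 6 fell (limma adjusted p under 0.05). That was 66.7%, beside 16.8% of all tested genes. The largest falls were those of Prok2 (-2.67), Rgs16 (-1.4) and Avp (-0.9), and Vipr2 (0.62) and Lhx1 (0.38) rose. Vip and Six6 stood at 0.09 and 0.04 and did not pass. Whether the pools differed in SCN content was not tested. Leptomeningeal markers, which mark the membranes around the brain, varied most between pools, from 7.71 to 8.39. Gpr176 was the check of the labels. Its log2 level was 9.34 on average in wild type at CT6 and 8.05 in the knockout, and 9.8 against 8.49 at CT18, so the labels held, and a signal remained in the knockout. Values are log2 levels after quantile normalization, so a difference of 1 means a doubling. A level is the signal of a gene's own probes and is compared between arrays, never between genes.

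The promoters of 3 related receptors are shown because these genes gave the largest day-night differences of the family. Gpr3, Gpr6 and Gpr12 are close relatives that raise cyclic AMP through Gs without added ligand. The stretches come from RefSeq windows of assembly GRCm38.p6, are upstream of the annotated start site and are written 5′ to 3′ on the strand of the gene. Gpr6 lies at chr10:41072331-41072398, Gpr3 at chr4:133212539-133212606 and Gpr12 at chr5:146585280-146585347, each on the minus strand. Capitals mark a full CRE (TGACGTCA) in Gpr6 and the core of a CRE, TGACG, read on the opposite strand in Gpr3. The Gpr12 stretch covers the same distance from the start site as that of Gpr6 and holds neither.
Gpr6: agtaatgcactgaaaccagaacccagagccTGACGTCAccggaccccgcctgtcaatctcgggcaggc
Gpr3: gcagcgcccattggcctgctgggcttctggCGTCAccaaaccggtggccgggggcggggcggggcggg
Gpr12: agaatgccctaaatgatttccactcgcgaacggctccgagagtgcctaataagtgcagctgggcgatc

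Over both genotypes, 5 of the 41 tested receptor genes rose at CT18 and 4 fell. Gpr6, Gpr12, Gpr17, Gpr85 and Gpr83 rose, and Gpr3, Gpr19, Gpr37 and Gpr137c fell. Among all 12452 genes tested, 10% were called higher at CT18 and 6.79% lower, or 16.8% in either direction, against 22% of the receptor genes. The median of the receptor genes was 0.0166 on the log2 scale and that of all genes 0.0104. A gene was called when its limma p, adjusted by Benjamini and Hochberg over all genes tested, was under 0.05. With the values as deposited or with median centring 7 were called, 5 higher and 2 lower, since Gpr37 and Gpr137c then no longer passed.

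**Figure D1:**
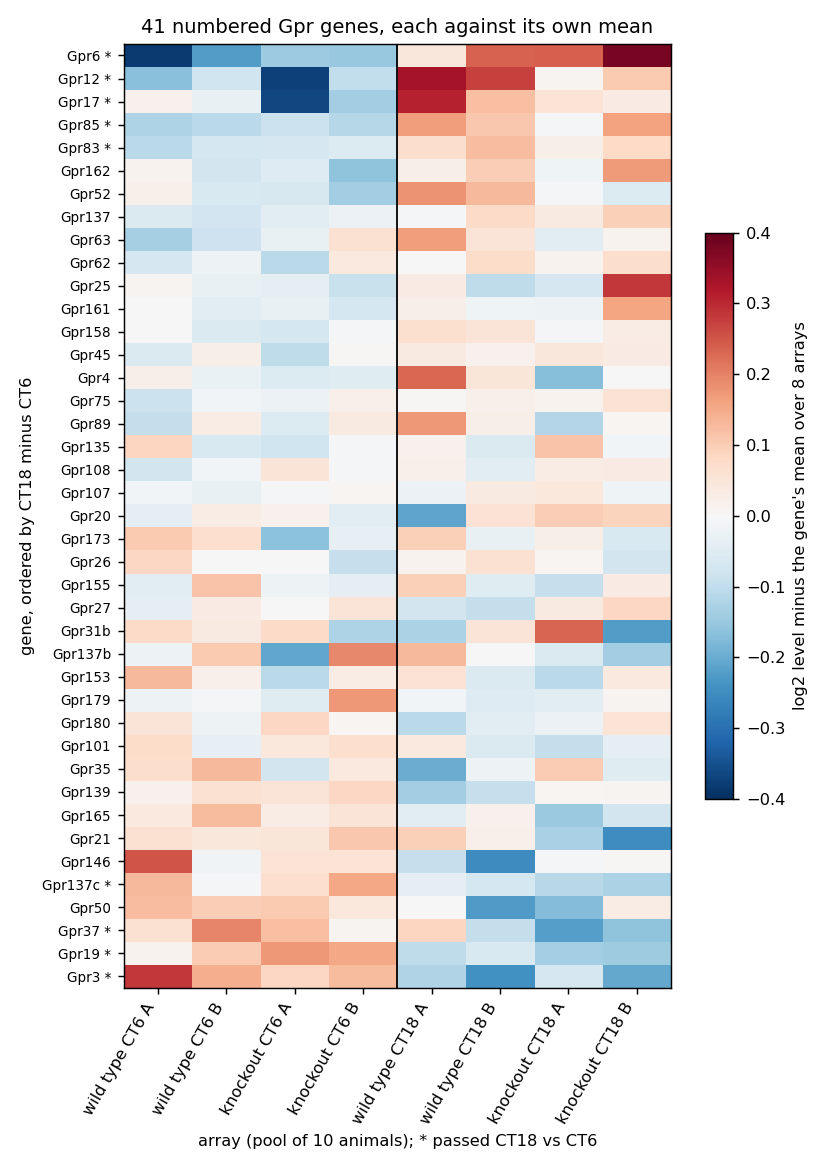
Heat map of the 41 tested genes (rows, ordered by CT18 minus CT6) in the 8 arrays (columns, CT6 left of the black line and CT18 right of it). Colour is the log2 level minus the gene's own mean over the 8 arrays, and a star marks the 9 genes that passed the day-night test over both genotypes. Gpr6 and Gpr12 at the top were below their mean in all 4 CT6 arrays and at or above it in all 4 CT18 arrays, and Gpr3 at the bottom ran the other way.

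Gpr6, a receptor with high ligand-independent Gs activity, had the largest difference of the 41. The wild-type arrays gave log2 levels of 7.53 and 7.69 at CT6, then 7.96 and 8.15 at CT18. The knockout arrays gave 7.76 and 7.76 at CT6, then 8.15 and 8.29 at CT18. Every CT18 array lay above every CT6 array, in each genotype and over both. Gpr6 rose by 0.45 ± 0.0577 (standard error of the fit, 1.37-fold, limma adjusted p = 0.000736). The rise was 0.44 in wild type (limma adjusted p = 0.0113) and 0.46 in the knockout (limma adjusted p = 0.00961). Of all tested genes 1.53% differed between the times by more. Gpr176, outside the set, rose by the same 0.45 ± 0.0491. Its rise was 0.46 in wild type and 0.44 in the knockout, and what the signal remaining in the knockout measures was not tested. Without wild type CT6 A or CT18 B the wild-type call of Gpr6 was lost, as was its knockout call without knockout CT18 B (adjusted p up to 0.0902 and 0.0828).

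Gpr12, its close relative, also rose. The arrays gave 6.87 and 6.95 in wild type at CT6 against 7.37 and 7.31 at CT18. In the knockout they gave 6.66 and 6.94 against 7.05 and 7.14. The times did not overlap, and the rise was 0.36 ± 0.0607 over both genotypes (1.28-fold, limma adjusted p = 0.00344). In wild type alone it was 0.43 (limma adjusted p = 0.0162) and in the knockout 0.29 (limma adjusted p = 0.0731), which did not pass. The lowest array, at 6.66, lay under the filter on mean level of 6.82. The wild-type call was lost without any 1 of the 4 wild-type arrays (adjusted p up to 0.116).

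Gpr3, the remaining relative, went the opposite way. The wild-type arrays read 7.7 and 7.56 at CT6, then 7.3 and 7.18 at CT18. The knockout arrays read 7.5 and 7.55 at CT6 and 7.35 and 7.21 at CT18. Again no CT18 array reached a CT6 array. Gpr3 fell by 0.32 ± 0.0515 over both genotypes (limma adjusted p = 0.0028). It fell by 0.40 in wild type (limma adjusted p = 0.0113), and in the knockout the difference was -0.24 (limma adjusted p = 0.0803). The wild-type call was lost without wild type CT6 A or CT18 B (adjusted p up to 0.0892).

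The other receptors listed as active without ligand and tested were Gpr21, Gpr26, Gpr52, Gpr62 and Gpr101, and none passed over both genotypes. Of the 8 tested in this list, 2 rose and 1 fell, or 37.5% beside 16.8% of all genes, with a median of 0.0422. This list was chosen with earlier results of these data known, so its share is not independent of the values. Gpr52, a Gs-coupled receptor, read 8.66 and 8.58 in wild type at CT6, then 8.82 and 8.77 at CT18. The knockout gave 8.58 and 8.5, then 8.63 and 8.59, so that the 4 knockout arrays lay closer together than the wild-type ones. Its difference over both genotypes was 0.12 ± 0.0405 (limma adjusted p = 0.0682). Gpr101, a receptor of the hypothalamus, stood at -0.08 (95% interval -0.17 to 0.02) and Gpr26 at 0.01 (95% interval -0.09 to 0.1).

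Gpr21 was the gene that passed in the knockout but not over both genotypes. The wild-type arrays gave 7.13 and 7.11 at CT6, then 7.16 and 7.08 at CT18, and the knockout CT6 arrays 7.11 and 7.17. The knockout arrays at CT18 read 6.94 and 6.82, below all 6 others. Gpr21 fell by 0.27 ± 0.0604 in the knockout (limma adjusted p = 0.0296). In wild type CT18 minus CT6 was 0.01 (limma adjusted p = 0.97). The difference between these changes, -0.27 ± 0.0854, did not pass (limma adjusted p = 0.944, 95% interval before adjustment -0.46 to -0.08). The fall also missed the threshold with median centring (adjusted p = 0.056), and without knockout CT6 A, CT6 B or CT18 B (adjusted p = 0.0722, 0.129 and 0.174). It missed it too without a level filter, with an intensity trend and with only the groups compared (adjusted p = 0.053, 0.0548 and 0.0647). Gpr21 lies inside Rabgap1 in the RefSeq annotation. Rabgap1 differed by -0.09 in the knockout (limma adjusted p = 0.417).

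**Figure D2:**
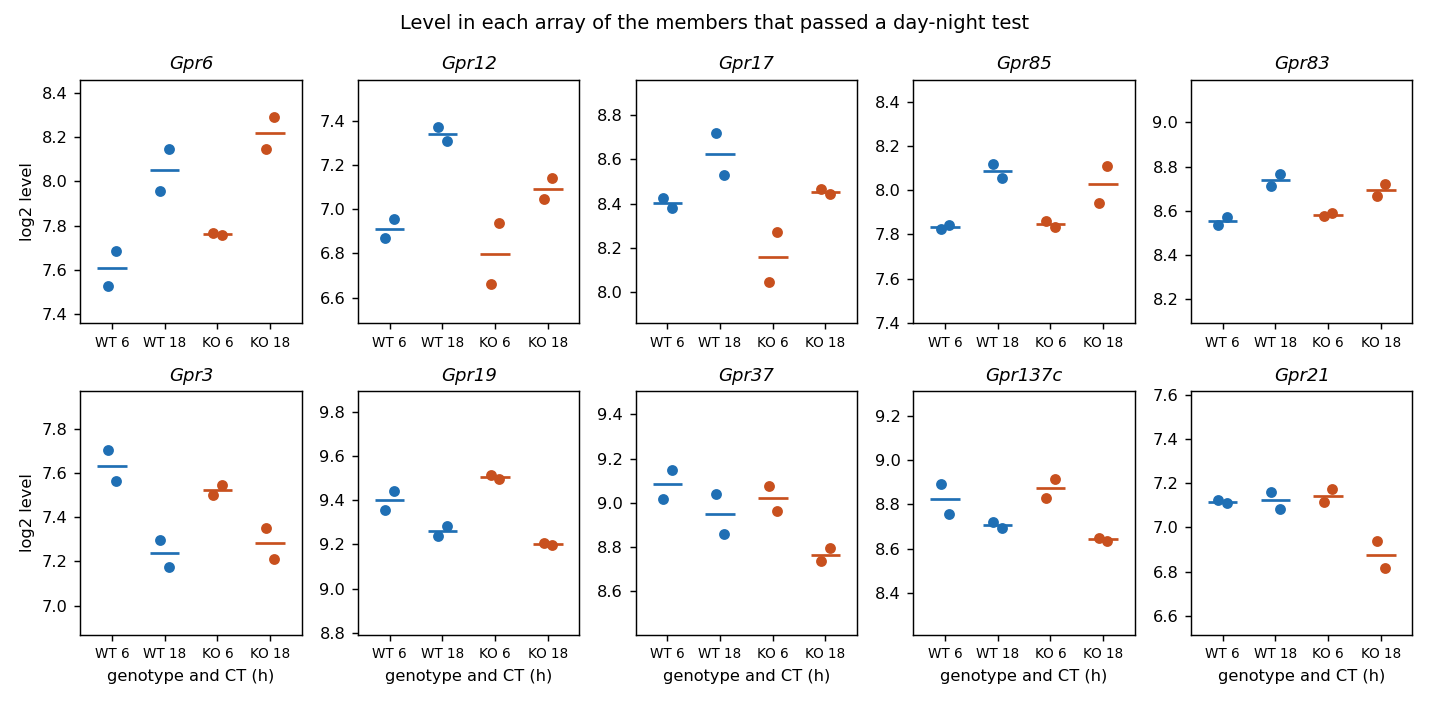
Log2 level in each array of the 10 genes that passed a day-night test in wild type, in the knockout or over both. Points are arrays and bars group means, blue for wild type (WT) and orange for the knockout (KO), at CT6 and CT18. Every panel spans the same range of log2 units, and Gpr21 stands out for its knockout CT18 arrays at 6.94 and 6.82.

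Gpr85 belongs to the SREB receptors, a small and highly conserved family found in brain, together with Gpr27 and Gpr173. Gpr85 read 7.83 and 7.84 in wild type at CT6, then 8.12 and 8.06 at CT18. Knockout levels were 7.86 and 7.83, then 7.94 and 8.11. All CT18 arrays were above all CT6 arrays, and Gpr85 rose by 0.22 ± 0.0452 (limma adjusted p = 0.0105). In wild type alone it rose by 0.25 (limma adjusted p = 0.0454), a call that ended without any 1 of 6 arrays, those of wild type and of the knockout at CT6 (adjusted p up to 0.23), or without a level filter (adjusted p = 0.0815). Its relatives did not pass. Gpr27 differed by -0.02 (95% interval -0.11 to 0.06) and Gpr173 by 0.01 (95% interval -0.09 to 0.12).

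Among the 4 tested receptors with reported peptide, protein or amino acid ligands, 1 rose and 2 fell, with a median of -0.15. That was 75% of a list of 4 beside 16.8% of all genes (10% higher and 6.79% lower). This list, too, was chosen with earlier results of these data known. Gpr19, a receptor for which a peptide ligand has been proposed, read 9.35 and 9.44 in wild type at CT6, then 9.24 and 9.28 at CT18. The knockout gave 9.51 and 9.5, then 9.2 and 9.2. The times did not overlap, and the knockout arrays of each time nearly coincided. Gpr19 fell by 0.22 ± 0.0381 over both genotypes (limma adjusted p = 0.00399) and by 0.30 ± 0.0540 in the knockout (limma adjusted p = 0.00948). In wild type the difference was -0.14 (limma adjusted p = 0.169). The knockout call was lost without knockout CT6 A, CT18 A or CT18 B (adjusted p up to 0.0612). Gpr19 overlaps Crebl2 in the annotation, and Crebl2 stood at 0.07 over both genotypes (limma adjusted p = 0.212).

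Gpr83, a brain receptor for which the neuropeptide PEN has been proposed as ligand, read 8.53 and 8.57 in wild type at CT6, then 8.71 and 8.77 at CT18. The knockout arrays were 8.58 and 8.59 against 8.67 and 8.72. Its night arrays lay above its day arrays throughout, by 0.15 ± 0.0375 (limma adjusted p = 0.0232). Leaving out any of 5 arrays ended this call, with the highest adjusted p, 0.0823, without knockout CT18 B. The 5 were wild type CT6 A and CT18 B and knockout CT6 A, CT6 B and CT18 B. The oligodendrocyte marker covariate described for Gpr37 also ended it (limma adjusted p = 0.0652). The difference of Gpr83 was 0.13 to 0.16 in all 16 settings tried, the covariate among them. Gpr139, a receptor activated by aromatic amino acids, read 8 and 8.05 at CT6 and 7.85 and 7.9 at CT18 in wild type, and did not pass over both genotypes (-0.11 ± 0.0365, limma adjusted p = 0.0792).

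Gpr37 and Gpr17 are receptors of the oligodendrocyte lineage, the first in myelinating cells and the second in maturing precursors. The wild-type levels of Gpr37 were 9.02 and 9.15 at CT6, then 9.04 and 8.86 at CT18. Its knockout levels were 9.07 and 8.96 at CT6, then 8.73 and 8.79 at CT18. The times overlapped, through wild type CT18 A. Gpr37 fell by 0.19 ± 0.0542 (limma adjusted p = 0.0358). The mean of the 7 oligodendrocyte markers, all 7 above the filter, was 10.01 and 10.14 at CT6 and 10.17 and 9.78 at CT18 in the wild-type arrays, and 10.1 and 9.88, then 9.83 and 9.92, in the knockout arrays. The 4 arrays with the lowest marker means, wild type CT18 B, knockout CT6 B and both knockout CT18 arrays, also had the 4 lowest levels of Gpr37. None of the 7 markers passed in any contrast. With the marker mean as a covariate, added after the data were seen, the difference of Gpr37 was -0.14 (limma adjusted p = 0.0659). The call also ended without a level filter (adjusted p = 0.0648), and without wild type CT6 B or CT18 B, or knockout CT6 A, CT18 A or CT18 B (adjusted p = 0.123, 0.112, 0.109, 0.102 and 0.0712). In such dissected tissue, fewer cells of a type and less RNA per cell cannot be told apart.

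Gpr17 read 8.43 and 8.38 in wild type at CT6, then 8.72 and 8.53 at CT18. The knockout gave 8.05 and 8.27 against 8.47 and 8.44. All CT18 arrays lay above all CT6 arrays, and Gpr17 rose by 0.26 ± 0.0592 (limma adjusted p = 0.0163). The call was lost without wild type CT6 B (adjusted p = 0.0601) or wild type CT18 A (adjusted p = 0.0546). The 5 precursor markers, all above the filter, had means of 8.52 and 8.52, 8.55 and 8.5, 8.42 and 8.44, and 8.44 and 8.49 in the same order of groups. Of these 5, Olig2, a lineage transcription factor, rose (0.27, limma adjusted p = 0.0136), and Pdgfra stood at -0.15 (limma adjusted p = 0.117). The part of the marker levels in the Gpr17 result was not tested. Gpr17 was the 1 gene that rose among the 3 tested receptors for protons, zinc, lipids, nucleotides or metabolites, with Gpr4 and Gpr35 not passing. Gpr17 lies inside Lims2, which stood at -0.07 (limma adjusted p = 0.271).

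**Figure D3:**
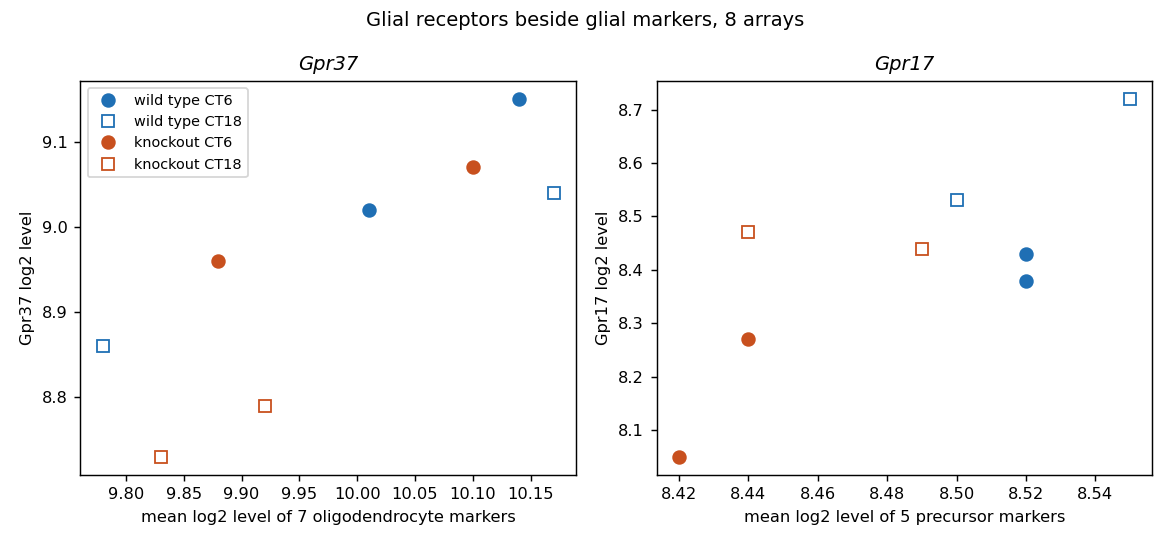
Log2 level of Gpr37 against the mean of 7 oligodendrocyte markers (left) and of Gpr17 against the mean of 5 precursor markers (right). Each point is an array, filled circles are CT6, open squares CT18, blue is wild type and orange the knockout. The lowest Gpr37 levels, 8.73 and 8.79, belong to knockout CT18 arrays with marker means of 9.83 and 9.92.

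Of 8 tested proteins of intracellular membranes or outside the main receptor classes 1 fell, or 12.5%, near the 16.8% of all genes. It was Gpr137c, a member of a small family of lysosomal membrane proteins. Gpr137c read 8.89 and 8.75 in wild type at CT6, then 8.72 and 8.69 at CT18. In the knockout it read 8.83 and 8.92 against 8.65 and 8.64. The times did not overlap, and Gpr137c fell by 0.17 ± 0.0437 (limma adjusted p = 0.0234). Leaving out wild type CT6 A, CT18 A or CT18 B, or knockout CT6 B, CT18 A or CT18 B ended the call (adjusted p from 0.0534 to 0.0767). Its relative Gpr137 was at 9.6 and 9.58 in wild type at CT6, then 9.65 and 9.73 at CT18, with 9.61 and 9.63 against 9.69 and 9.75 in the knockout. That difference, 0.1 ± 0.0384, did not pass (limma adjusted p = 0.108). Gpr107 and Gpr89, proteins of the Golgi apparatus, differed by 0.02 (95% interval -0.07 to 0.1) and 0.04 (95% interval -0.07 to 0.16).

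None of the 11 other class A orphans tested passed, nor did either class C gene. Gpr165 read 10.65 and 10.73 in wild type at CT6, then 10.56 and 10.63 at CT18. The knockout gave 10.64 and 10.66 against 10.46 and 10.53, so the times did not overlap. The difference was -0.12 ± 0.0406 (limma adjusted p = 0.065). Gpr75 ranged from 10.14 to 10.28 over the 8 arrays and Gpr158, a class C receptor that binds RGS proteins, from 10.08 to 10.21. Their differences were 0.05 (95% interval -0.04 to 0.13) and 0.07 (95% interval -0.02 to 0.15). Gpr50, the melatonin-related receptor that does not bind melatonin, read 7.18 and 7.15, then 7.06 and 6.83 in wild type. In the knockout it read 7.16 and 7.1, then 6.88 and 7.09, and its difference of -0.18 ± 0.0610 did not pass (limma adjusted p = 0.0673). Altogether 12 of the 41 genes had no overlap between the 4 arrays of each time, 6 higher and 6 lower at CT18. Of all tested genes 21% had none, 12.6% higher and 8.3% lower.

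Within each genotype, where 2 arrays stood against 2, fewer genes passed. In wild type 3 rose (Gpr6, Gpr12 and Gpr85) and 1 fell (Gpr3), or 9.76% of the 41. Of all genes 6.94% were called there, 4.4% higher and 2.54% lower. In the knockout 1 rose (Gpr6) and 2 fell (Gpr19 and Gpr21), or 7.32%, beside 7.16% of all genes, 3.63% higher and 3.53% lower. The arrays of the times did not overlap in wild type for 13 genes higher and 10 lower at CT18, where 30.5% and 21.6% of all genes, together 52.2%, did not. In the knockout it was 11 higher and 10 lower, beside 28.7% and 23.8%, together 52.5%, of all genes. The wild-type count of 4 became 0 without wild type CT6 A or CT18 B and 2 without CT18 A, and the knockout count of 3 became 1 without knockout CT6 A and 0 without CT18 B. The day-night difference had the same sign in both genotypes for 27 of the 41 genes, or 65.9%, where 68.2% of all genes did. These contrasts share no arrays. The 9 genes called over both genotypes had the same sign in each, which choosing them on the average of both favours.

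**Figure D4:**
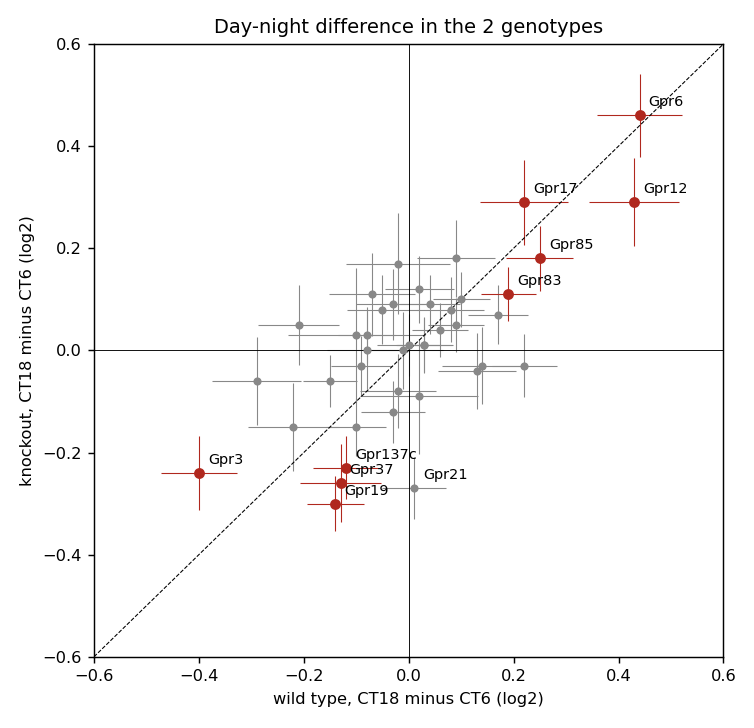
CT18 minus CT6 on the log2 scale in wild type (horizontal) and knockout (vertical) for the 41 tested genes, with standard errors of the fit as bars. Red points are the 9 genes called over both genotypes, grey the others, and the dashed line marks equal differences. Gpr6 lies nearest to that line at the upper end (0.44 and 0.46), while Gpr21 lies below it (0.01 and -0.27).

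The loss of Gpr176 was followed by no called change in any of the 41 receptor genes. None passed at CT6, at CT18 or over both times, and none passed for a day-night change that differed between genotypes (limma, 0 of 41 each). Among all genes, 0.00803% were called at CT6, 0.00803% at CT18 and 0.0241% over both times, and 0 of 12452 for the day-night change. Without adjustment, 2, 7, 8 and 3 of the 41 had p under 0.05, and 528, 1558, 1496 and 605 of all 12452 genes did. Over both times none of the 41 had knockout arrays entirely above or below the wild-type ones, which 4.22% of all genes had, 2.1% above and 2.13% below. The differences ran from -0.21 to 0.16, and 32 of the 41 were within 0.1 of no difference.

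The 95% intervals of the differences over both times, which are not adjusted for the number of genes, reached from -0.34 at the lowest to 0.29 at the highest, and 29 lay wholly inside 0.2 either way. The corresponding difference of Gpr176 was -1.30 ± 0.0491 (95% interval -1.41 to -1.19). No receptor's interval reached as far as that of Gpr176. The intervals of Gpr17, Gpr52, Gpr12, Gpr6 and Gpr21 among others left out 0 before adjustment for the number of genes tested, and none of these differences passed after it.

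**Figure D5:**
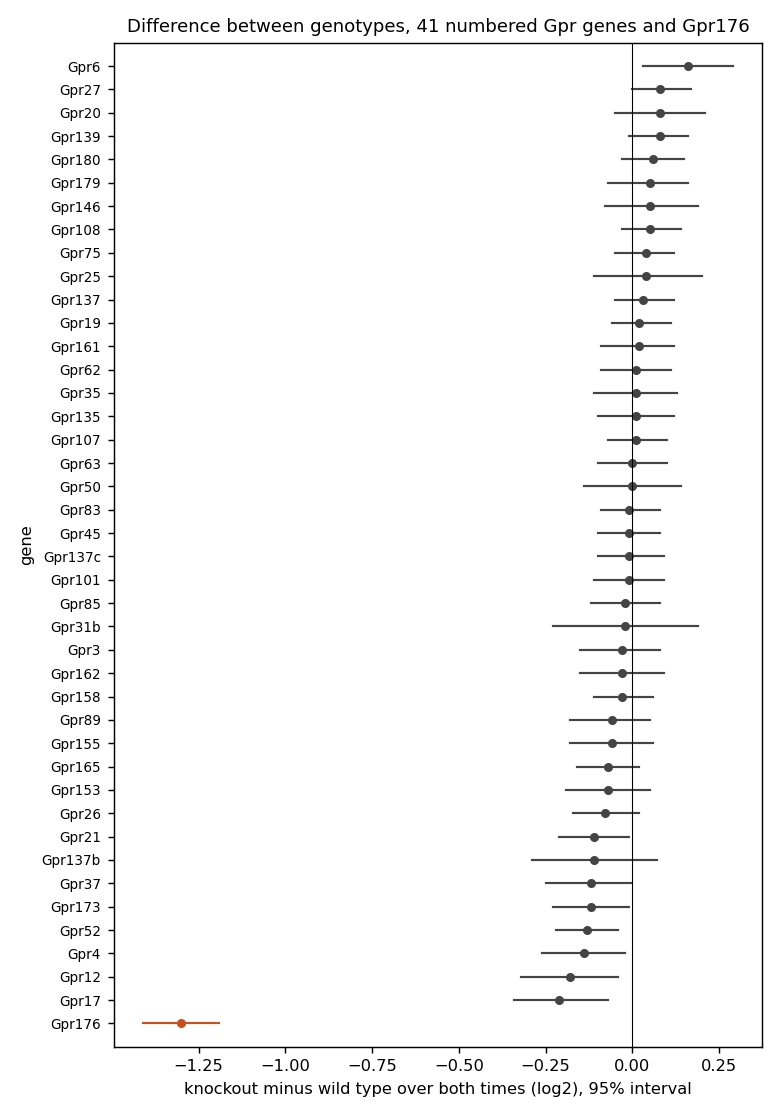
Knockout minus wild type over both times on the log2 scale for the 41 tested genes and Gpr176, ordered by the difference, with points for the estimate and lines for the 95% interval of the fit. Gpr17 at -0.21 and Gpr6 at 0.16 are the ends of the set, and Gpr176, in orange, stands at -1.30.

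The 5 genes of smallest p over both times were Gpr17, Gpr52, Gpr12, Gpr6 and Gpr21. Gpr17 stood at -0.21 (95% interval -0.34 to -0.07, limma adjusted p = 0.342), with its lowest levels, 8.05 and 8.27, in the knockout at CT6. The mean of the 5 precursor markers moved with it between genotypes, at 8.42 to 8.49 in the 4 knockout arrays and 8.5 to 8.55 in the 4 wild-type arrays, and it was lowest in the knockout at CT6. None of the 5 markers passed between genotypes, with a median of -0.104 over both times, and their part in the Gpr17 difference was not tested. Gpr52 stood at -0.13, Gpr12 at -0.18 and Gpr21 at -0.11 (limma adjusted p = 0.353, 0.368 and 0.38). Gpr6 stood at 0.16 (95% interval 0.03 to 0.29, limma adjusted p = 0.368). Its arrays did not overlap between genotypes at CT6 or, narrowly, at CT18, where wild type B read 8.146 and knockout A 8.148. Of all tested genes 32.8% did not overlap at CT6 and 45.8% at CT18. Over all 8 arrays the genotypes overlapped for each of these 5 genes.

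At CT6 alone the smallest p-values belonged to Gpr17 (-0.24), Gpr173 (-0.19), Gpr19 (0.11), Gpr63 (0.12) and Gpr6 (0.15), each with a limma adjusted p of 0.975. Of the 41, 14 did not overlap between genotypes at CT6, 7 in each direction, against 32.8% of all genes (15.7% higher and 17.1% lower in the knockout). At CT18 they belonged to Gpr21 (-0.25), Gpr52 (-0.19), Gpr4, a proton-sensing receptor of endothelium (-0.22), Gpr12 (-0.25) and Gpr27 (0.14), with limma adjusted p-values from 0.319 to 0.359. There 21 of the 41 did not overlap, 7 higher and 14 lower in the knockout, against 45.8% of all genes (19.2% higher and 26.7% lower). For the day-night change they were Gpr21 (-0.27), Gpr63 (-0.25), Gpr35 (0.26), Gpr19 (-0.16) and Gpr146 (0.24), with a limma adjusted p of 0.944 for each. The day-night and genotype comparisons share arrays, so their values for a gene are not separate evidence.

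Gpr63 and Gpr146 are given as examples of such a difference in the arrays. Gpr63, an orphan receptor, read 6.74 and 6.79 at CT6 and 7.03 and 6.92 at CT18 in wild type, and 6.84 and 6.93 against 6.82 and 6.88 in the knockout. Gpr146 read 7.72 and 7.46 against 7.37 and 7.22 in wild type, and 7.52 and 7.52 against 7.46 and 7.47 in the knockout. In both genes the times were apart in the wild-type arrays and closer together in the knockout arrays. The knockout arrays of Gpr146 still did not overlap between times, and neither difference of changes passed. Gpr35 also changed more in wild type (-0.21) than in the knockout (0.05). Gpr21 and Gpr19 went the other way, with 0.01 and -0.14 in wild type against -0.27 and -0.3 in the knockout.

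Gpr176 lies on chromosome 2, and 4 of the 68 genes lie on the same chromosome. The nearest, Gpr155, is separated from it by 491 protein-coding genes, followed by Gpr21 with 630, Gpr107 with 745 and Gpr158 with 939. None of the 4 passed a test between genotypes.

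The 27 genes under the filter had mean log2 levels from 4.97 (Gpr82) to 6.69 (Gpr61), where Gpr4 at 6.86 was just inside the filter. They included the immune receptors Gpr34, Gpr65, Gpr84, Gpr171, Gpr174 and Gpr183, and the receptors Gpr151, Gpr149 and Gpr22. Tested without a filter, their differences between times ran from -0.11 to 0.1 and between genotypes from -0.12 to 0.14. The smallest limma adjusted p was 0.267 between times (Gpr84) and 0.584 between genotypes. The tested share, 60.3%, was near that of all genes, 62.5%.

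The proteins that receptors act on were taken from lists of G protein subunits, receptor kinases and arrestins. Over both genotypes 1 of 10 tested alpha subunits rose and 1 fell, or 20%, near the 16.8% of all genes. Gna13 rose by 0.16 (limma adjusted p = 0.0477), and Gnal, the olfactory and striatal relative of Gs, fell by 0.15 (limma adjusted p = 0.048). Of 12 beta and gamma subunits 1 rose and 2 fell, Gnb5 (0.18), Gnb4 (-0.63) and Gng4 (-0.22), or 25% beside the same 16.8%. Of 5 receptor kinases and arrestins 2 rose, the kinases Grk5 (0.32, limma adjusted p = 0.00305) and Grk3 (0.19, limma adjusted p = 0.0163), and 1 fell, Arrb1, which encodes an arrestin that uncouples receptors (-0.22, limma adjusted p = 0.00329). That was 60% of a list of 5, beside 16.8% of all genes, and the lists were chosen with earlier results of these data known. None of these genes passed between genotypes.

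Receptors named for their ligand are set beside the numbered genes. Their list was chosen with earlier results of these data known, so it is no neutral comparison. Of 55 tested, 12 rose and 5 fell over both genotypes, or 30.9%, with a median of -0.00542. The share was 22% of the numbered genes and 16.8% of all genes, of which 10% were higher and 6.79% lower. The largest differences in this list were greater than that of Gpr6. Avpr1a, a vasopressin receptor, rose by 1.29 (limma adjusted p = 3.69e-07). Ntsr1, a neurotensin receptor, fell by 1.26, Calcr, the calcitonin receptor, fell by 0.75, and Drd5, a dopamine receptor that raises cyclic AMP, rose by 0.72 (limma adjusted p = 8.83e-06, 4.51e-06 and 9.76e-06). The largest of the numbered genes was the 0.45 of Gpr6. Whether the shares of called genes differ was not tested.

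Promoter windows of 300 bases, 250 before and 50 after a start site, were found in RefSeq for 51 of the 68 genes and for 8 of the 10 that passed a day-night test. They were searched on both strands for motifs of clock factors and CREB. A full CRE, TGACGTCA, was in 1 of 67 windows of the set, that of Gpr6 shown above, at position -78 counted from the start site, and in 1.79% of the 32851 windows of all genes. Its core TGACG, searched after the data were seen and contained in the full CRE, was in 18 of the 67 and in 20.8% of all. It was matched in Gpr3, Gpr6, Gpr19 and Gpr83 among the 8. These 8 genes have 12 windows, 4 of them those of Gpr19, so a share of genes is not a share of windows. The E-box CACGTG was in 2 windows of the set (Gpr63 and Gpr146) against 7.15% of all windows. The D-box TTATGTAA was in 1 (Gpr174) against 0.938%, while TTACGTAA (0.119% of all) and the RORE (0.219%) were in none. A match describes letters in this window only.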

How the data were processed

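The authors deposited log2 levels of 28853 probe sets on 8 arrays. Per the labels' protocols, column-purified RNA was amplified, biotin-labelled and put on whole-transcript arrays. For background correction, probe summary and normalization by the authors, the method was not given in the sources used here. Because the 8 deposited columns differed by up to 0.139 in their lower quartile, they were quantile normalized.

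Of the probe sets, 21789 had 1 gene symbol in the platform annotation, 1621 had several and 5443 were unnamed here. All 68 numbered Gpr genes matched the RefSeq table of GRCm38.p6 by Entrez number, and 0 symbols changed. The brightest probe set by mean over the 8 arrays stood for a gene, which mattered for 1 of them, Gpr31b. Genes under the 40th percentile of all probe means, 6.82, were not tested, which left 12452.

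A limma 3.58.1 fit (R 4.3.3) with a mean per group used all 8 arrays (4 residual and 5.58 prior degrees of freedom). It gave 7 contrasts, with Benjamini-Hochberg adjustment over all tested genes. The fit was tested on simulated data, drawn with independent normal noise of each gene's fitted variance. Such data hold no differences between pools or tissue cuts, so the test does not show how the fit behaves on these arrays. Precision is limited by having 2 arrays in a group.

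The genes and lists were chosen with earlier results of these data known. Named are genes called in any contrast, otherwise the 5 of smallest p, the 10 of highest mean level and those next to the filter. The mean level only chose names, since signals of different probes give no order of expression. It chose Gpr165, Gpr75, Gpr158, Gpr137, Gpr19, Gpr107, Gpr89, Gpr37, Gpr101 and Gpr27. Other normalizations, filters, variance models, sample sets and each array left out in turn were tried, and a marker covariate was added after the data were seen.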

Additional observations from a re-analysis of the deposited data

How the results depend on the processing

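The 7 counts of called genes stayed within 1.5 times of their values under the values as deposited, median centring, no level filter, a filter at the 50th percentile, the mean over probe sets, an intensity trend and, where it applied, only the groups compared. With 1 array left out, when the lone array is assumed to vary like the others, the counts ran from 0 to 4 in wild type, from 0 to 4 in the knockout, from 6 to 8 over both genotypes, and stayed at 0 for the other 4. Gpr6, Gpr3, Gpr19 and Gpr85 passed over both genotypes in all 16 settings, and Gpr12 in all 15 in which it was tested, the 50th percentile filter having removed it. No named difference changed sign. Deviations of pools with the same letter correlated from -0.222 to 0.257 between groups, with both signs. With 2 arrays per group this cannot tell whether the letters A and B pair some of the pools. With the letter as a replicate block 3 genes were called in wild type, 3 in the knockout and 9 over both genotypes, and Gpr85 in wild type alone no longer passed (adjusted p = 0.0648). In the knockout the count over all genes fell from 891 to 590 with median centring and to 382 at the lowest with 1 array left out, and in wild type it fell from 864 to 311. The 2 arrays per group limit what can be seen.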

Other observations

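Some numbered receptor genes lie inside or across another gene. Among the tested partners Erlec1 and Zdbf2 passed between times over both genotypes and the others did not. Of all genes 16.8% passed, and whether the partners differ from that share was not tested. Erlec1, a lectin of the endoplasmic reticulum, fell by 0.22 over both genotypes (limma adjusted p = 0.0127), while Gpr75, which lies inside it in the annotation, stood at 0.05 (95% interval -0.04 to 0.13). Zdbf2, an imprinted gene that overlaps Gpr1, fell by 0.39 (limma adjusted p = 0.000379), with Gpr1 under the level filter and so not tested in the same fit. Rabgap1l, which holds Gpr52, stood at -0.08 (limma adjusted p = 0.189), against 0.12 for Gpr52.

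Gpr31b and Gpr25 were picked out after their values were seen. Gpr31b was the single gene of the set with more than 1 probe set. The brighter probe set read 7.82 and 7.37 in the knockout at CT18 and the other 7.81 and 7.24, so both gave the same wide gap between these pools. Gpr25, an orphan receptor, read 7.86 in knockout CT18 B and between 7.48 and 7.61 in the other 7 arrays.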
